A study of Homo sapiens with 22 samples.

Results

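Transcript levels of 7 genes were followed in MDA-MB-231 cells: 5 members of the inhibitor of apoptosis (IAP) family, BIRC2, BIRC3, XIAP, BIRC5 and BIRC6, and 2 adaptors that bind them at tumour necrosis factor (TNF) receptors, TRAF1 and TRAF2. They were chosen by name from the 20668 gene symbols in the deposited tables, and the question put to them was how BIRC3 behaved beside the other 6. All 7 were among the 12713 genes that passed a filter on low values (2 or more samples at 0.5 RPKM or above). RPKM is the number of reads on a gene divided by transcript length and by the reads mapped in the sample, so levels of different genes can be set side by side.

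MDA-MB-231 is a triple-negative breast cancer (TNBC) cell line that carries mutant p53 and expresses the glucocorticoid receptor (GR). Before treatment every culture, vehicle included, spent 3 days without phenol red and in serum stripped of steroids by charcoal. The treatments were vehicle, 100 nM dexamethasone (Dex, a synthetic glucocorticoid) for 2 h or 4 h, or 10 μM Compound A (CpdA, a selective GR modulator) for 2 h or 4 h. Each of the 5 groups held 2 biological replicates, 10 samples in all, and the 2 ligands were given at different doses. The labels give the vehicle samples no time, while the column headings of their files name replicate 1 for 2 h and replicate 2 for 4 h, so time and replicate cannot be told apart in vehicle.

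IAP proteins are defined by the BIR domain, a zinc-binding fold. XIAP binds and inhibits caspases directly. BIRC2 (cIAP1) and BIRC3 (cIAP2) are ubiquitin ligases that are held at TNF receptors through TRAF2, often together with TRAF1, where they attach ubiquitin to RIPK1 and feed NF-κB signalling, and where their loss releases the kinase NIK (MAP3K14) and the noncanonical NF-κB arm. BIRC5 (survivin) is a subunit of the chromosomal passenger complex of mitosis, and BIRC6 (BRUCE) is a very large ubiquitin-conjugating enzyme. BIRC3 and TRAF1 are textbook NF-κB target genes, and glucocorticoids are known both to repress many NF-κB targets and to induce some inhibitors of the pathway.

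Some features of the libraries bear on the values below. Relative sequencing depth was estimated from the most frequent ratio of low RPKM values between vehicle replicate 1 and each other library. It varied by at most 1.212-fold over the 10 libraries, and absolute read totals are unknown. The 8 mesenchymal and basal markers of the line were all at 1 RPKM or more in every sample (summed level 2640 to 2888 RPKM). Of 13 luminal, blood and endothelial markers in the files, 9 were under 1 RPKM in every sample, ESR1 and PGR among them, and KRT8, ERBB2, GATA3 and COL1A1 were at 1 RPKM or more in every sample. The 13 had a summed level of 266 to 356 RPKM, and KRT8 alone stood at 244 to 326 RPKM. The vehicle replicates differed on NF-κB targets: 16 of the 18 such genes tested were higher in vehicle replicate 1, with a median gap of 0.47 on the log2 scale, against 0.00 for all genes. Dex 4 h replicate 1 differed from its partner by transcript length. Values without one of these libraries are given where leaving it out ended a call or moved a called value by more than 1.5 times, and for the members that moved most. As RNA came from whole cultures, fewer cells that express a gene and less of its RNA per cell cannot be told apart.

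In vehicle, BIRC5 and BIRC2 were the most abundant members and BIRC6 the least. BIRC5 stood at 41.3 and 41.6 RPKM in replicates 1 and 2, and BIRC2 at 38.2 and 38.2 RPKM. TRAF2 followed at 18.0 and 18.6 RPKM. BIRC3 stood at 17.1 and 8.72 RPKM and TRAF1 at 14.9 and 9.59 RPKM, and the replicate ranges of these neighbours in the order overlapped. XIAP was at 7.71 and 7.50 RPKM, and BIRC6 at 4.36 and 3.84 RPKM. No other pair of neighbours in this order overlapped. The 1.94-fold gap of BIRC3 between the vehicle replicates was larger than that of 99.0% of the genes tested, and the 1.54-fold gap of TRAF1 was larger than that of 97.8%. The other 5 members differed by at most 1.13-fold between the same libraries. Of the 3 further IAP genes, NAIP and BIRC7 were under 0.03 RPKM in every sample and BIRC8 was not analysed here.

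**Figure D1:**
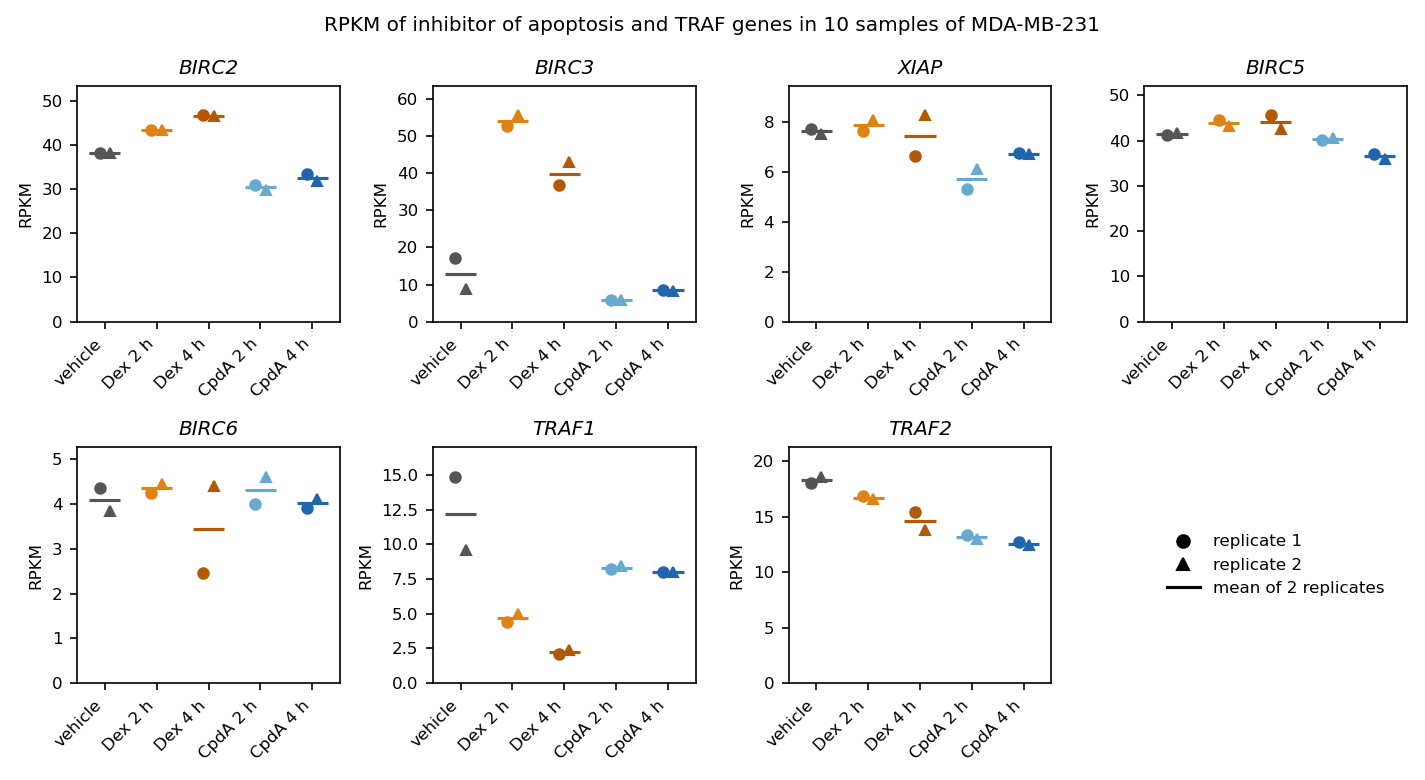
RPKM (vertical axis, from 0, its range set for each gene) of the 7 members in the 5 groups (horizontal axis). Circles are replicate 1, triangles replicate 2 and lines the mean of the 2. BIRC3 is highest in the 4 Dex samples (36.7 to 55.6 RPKM), TRAF1 is lowest there (2.07 to 4.96 RPKM), and the other 5 members stay within 1.88-fold from their lowest to their highest sample.

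BIRC3 and BIRC2 lie side by side. In GRCh37, with GENCODE v44 gene models lifted to that build, BIRC3 occupies chr11:102188215-102210134 and BIRC2 chr11:102217942-102249401, both on the plus strand, with 7807 bases and no protein-coding gene between them. The others lie apart, with XIAP at chrX:122993562-123047822, BIRC5 at chr17:76210267-76221717, BIRC6 at chr2:32582091-32844638 and TRAF2 at chr9:139776364-139821059, all on the plus strand, and TRAF1 at chr9:123664671-123691451 on the minus strand. A long noncoding RNA on the opposite strand, ENSG00000288528, meets an exon of BIRC3, and how reads were assigned by strand is not given in the sources used here. Only 0.274% of the 50-base words in the longest coding transcript of BIRC2 also occur in BIRC3, so nearly all 50-base reads of the neighbours can be told apart. Of XIAP's words, 5.13% occur in other genes, 1.65% in the pseudogene XIAPP1.

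The 250 bases upstream of the start sites are shown for the 3 members that the NF-κB and glucocorticoid background concerns most: the neighbours BIRC3 and BIRC2, whose levels in Dex differ in size, and TRAF1, which moved the other way. The sequences are those of RefSeq (GRCh38.p14) and each was found once in GRCh37, at chr11:102187965-102188214 on the plus strand for BIRC3, chr11:102217695-102217944 on the plus strand for BIRC2 and chr9:123691450-123691699 on the minus strand for TRAF1 (the furthest upstream of its 3 listed starts, as for BIRC2, which has 2). Each is written 5′ to 3′ on the strand of its gene, and capitals mark matches to the κB consensus on either strand.
BIRC3: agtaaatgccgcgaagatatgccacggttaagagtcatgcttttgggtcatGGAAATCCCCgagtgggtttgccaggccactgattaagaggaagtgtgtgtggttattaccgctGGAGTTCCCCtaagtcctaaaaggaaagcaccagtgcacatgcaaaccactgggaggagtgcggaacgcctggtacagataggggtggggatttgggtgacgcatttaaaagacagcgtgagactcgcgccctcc
BIRC2: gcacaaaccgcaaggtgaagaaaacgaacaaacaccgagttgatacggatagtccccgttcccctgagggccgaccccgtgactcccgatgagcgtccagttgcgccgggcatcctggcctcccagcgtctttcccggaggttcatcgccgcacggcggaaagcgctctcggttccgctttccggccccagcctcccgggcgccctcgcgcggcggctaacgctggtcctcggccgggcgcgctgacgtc
TRAF1: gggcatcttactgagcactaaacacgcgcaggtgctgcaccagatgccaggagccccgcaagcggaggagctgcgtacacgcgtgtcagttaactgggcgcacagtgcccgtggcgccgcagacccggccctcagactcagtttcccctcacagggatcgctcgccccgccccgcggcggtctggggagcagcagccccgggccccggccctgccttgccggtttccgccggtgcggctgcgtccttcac
The BIRC3 window holds 2 κB matches, GGAAATCCCC at -199 to -190 and GGAGTTCCCC at -135 to -126, counted from the start site. No listed start of BIRC2, TRAF1, XIAP or TRAF2 has a κB match in its window, and the first start of BIRC6 has 1. Among 35116 promoter windows of the same length in the table, 5.21% hold at least 1 κB match. A glucocorticoid response element written as GNACA, any 3 bases, then TGTNC (0.327% of windows) and an AP-1 element written as TGANTCA (6.57% of windows) were searched on both strands and occur in none of the members' windows, which says only that these letters are not in these 250 bases. BIRC5 is not in the table. By chromatin immunoprecipitation (ChIP), the paper reports GR at glucocorticoid response elements in regulatory regions of BIRC3 with Dex and not with CpdA. It places most GR-bound sites of either ligand outside promoters, and those data were not analysed here.

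Dex raised BIRC3 and lowered TRAF1, each by more than any other member, and raised BIRC2 slightly. BIRC3 stood at 52.8 and 55.6 RPKM at 2 h and at 36.7 and 43.0 RPKM at 4 h, and all 4 samples lay above both vehicle samples. Its log2 fold change against vehicle was 2.14 ± 0.24 (SE, n = 2 against 2, limma adjusted p = 0.000324) at 2 h, a 4.41-fold rise, and 1.70 ± 0.24 (adjusted p = 0.00067) at 4 h, or 3.24-fold. The change at 2 h exceeded in size that of 99.5% of the genes tested. Against vehicle replicate 2 alone the log2 fold changes were 2.62 and 2.18, and against vehicle replicate 1 alone 1.66 and 1.22. The column headings match vehicle replicate 1 to 2 h and replicate 2 to 4 h. Matched in this way the values were 1.66 at 2 h and 2.18 at 4 h, so the larger value was then at 4 h. Its 6877-base transcript falls in a length class where Dex 4 h replicate 1 was lower by a median of 0.17, and without that library the 4 h value was 1.81 (adjusted p = 0.00301). With Dex, BIRC3 was the most abundant of the 7 members at 2 h, above BIRC5 and BIRC2 in both replicates, and its range overlapped that of BIRC5 at 4 h.

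TRAF1, an adaptor without the RING domain of its relatives, went the opposite way. It fell to 4.42 and 4.96 RPKM at Dex 2 h and to 2.07 and 2.36 RPKM at Dex 4 h, both groups below vehicle and below every CpdA sample. The log2 fold changes were -1.33 ± 0.17 (adjusted p = 0.000708) at 2 h and -2.38 ± 0.17 (adjusted p = 7.41e-06) at 4 h. Without vehicle replicate 1 they were -1.02 and -2.07, and without vehicle replicate 2 they were -1.65 and -2.70, and each was called. Without Dex 4 h replicate 1 the 4 h value was -2.29. TRAF1 ended below BIRC6 at 4 h and was then the lowest of the 7.

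The other IAP and TRAF genes changed little with Dex. BIRC2 stood at 43.5 and 43.4 RPKM at 2 h and at 46.7 and 46.6 RPKM at 4 h, above vehicle in every sample, with log2 fold changes of 0.18 ± 0.04 (adjusted p = 0.0175) and 0.29 ± 0.04 (adjusted p = 0.000645). The 2 h call was lost when any 1 of the 4 samples was left out (adjusted p 0.0508 to 0.113), and the 4 h call was not. TRAF2, the scaffold that recruits both cIAPs, was at 16.9 and 16.6 RPKM at 2 h (-0.13 ± 0.05, adjusted p = 0.208) and fell to 15.4 and 13.9 RPKM at 4 h (-0.32 ± 0.05, adjusted p = 0.0022, and -0.40 without Dex 4 h replicate 1). XIAP (0.04 and -0.04) and BIRC5 (0.08 and 0.09) did not pass the test at 2 h or 4 h, with 95% intervals of -0.18 to 0.27 and -0.02 to 0.18 at 2 h. The comparisons with vehicle share the same 2 vehicle samples. In all, 3 of the 7 members were called at Dex 2 h, where 10.3% of all genes tested were, and 4 of 7 at Dex 4 h, where 27.4% were. Both BIRC3 and TRAF1 passed a fold change of 2 at each time, as did 2.01% of genes at 2 h and 3.78% at 4 h. The median log2 fold change of the 7 was 0.08 at 2 h and -0.04 at 4 h, against -0.02 and -0.05 over all genes. Of all calls at Dex 4 h, 33.8% were increases, or 49.9% after scaling each sample to 1 median, and the direction of no called member turned.

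**Figure D2:**
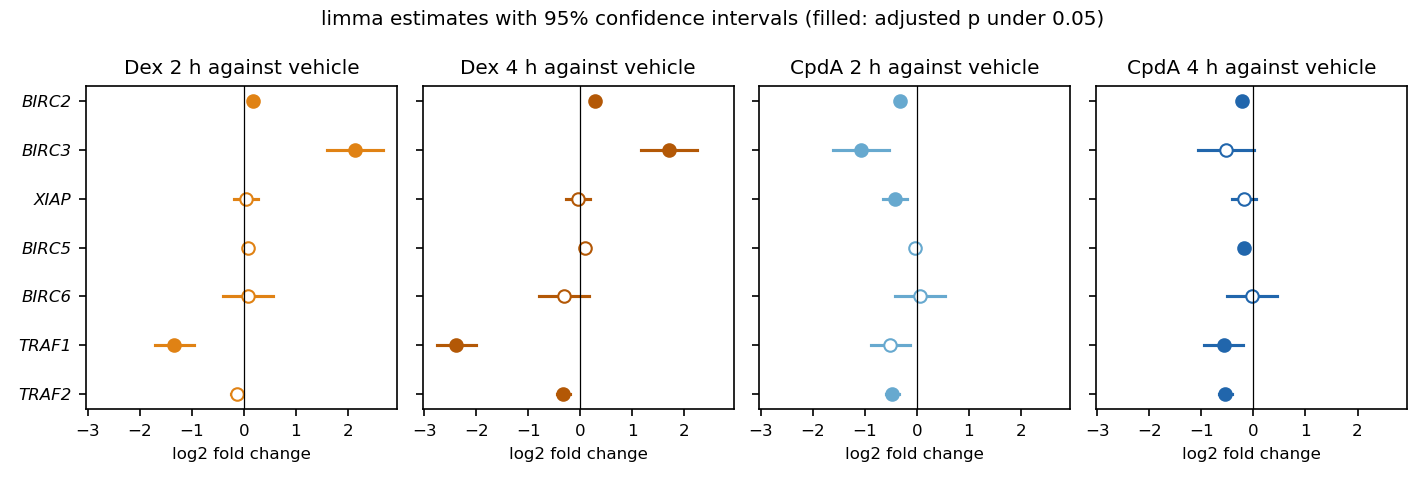
Log2 fold change against vehicle (horizontal axis) of the 7 members (vertical axis) for each ligand and time, from limma over 12713 genes. Points are estimates, lines 95% confidence intervals and filled points have an adjusted p under 0.05. BIRC3 lies at 2.14 and 1.70 with Dex and at -1.08 and -0.52 with CpdA, while BIRC2, BIRC5 and TRAF2 have the narrowest intervals.

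BIRC6 at Dex 4 h rests on libraries that did not match. It was at 2.45 RPKM in replicate 1 and 4.41 RPKM in replicate 2, a 1.77-fold gap that was larger than that of 98.8% of genes, while the other 8 samples lay between 3.84 and 4.61 RPKM. The 4 h log2 fold change was -0.30 ± 0.21 (adjusted p = 0.335) with both, 0.11 (adjusted p = 0.509) without replicate 1 and -0.71 (adjusted p = 0.00142) without replicate 2. BIRC6 has the longest transcript of the members, 16190 bases, and in this group replicate 1 was lower than replicate 2 for 90.0% of 489 genes with transcripts of 10000 bases or more, by a median of 0.34 on the log2 scale. For 2645 genes under 2000 bases, replicate 1 was higher by a median of 0.13. XIAP, with 8584 bases, was likewise lower in replicate 1, at 6.62 against 8.25 RPKM, a gap of 0.31 where genes of 8000 to 10000 bases had a median of 0.26. The part of this length pattern in the values of BIRC6 and XIAP was not tested. In the other 4 groups the medians over the same length classes stayed between -0.09 and 0.06. At CpdA 2 h replicate 1 was lower for 78.8% of 542 genes of 8000 to 10000 bases, by a median of 0.06.

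**Figure D3:**
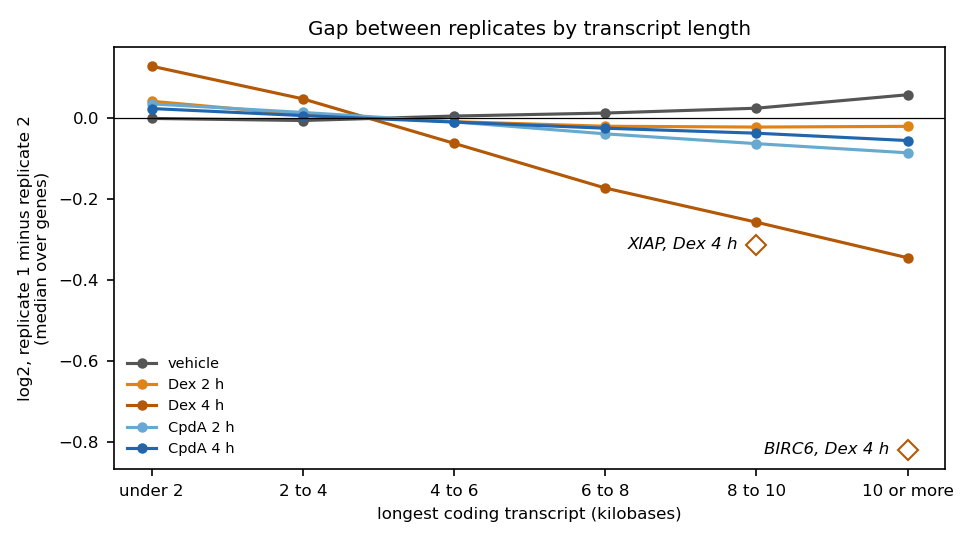
Median over genes of the log2 gap between replicate 1 and replicate 2 (vertical axis) by length of the longest coding transcript in kilobases (horizontal axis), 1 line per group, with lengths known for 11664 of 12713 genes. Diamonds are XIAP and BIRC6 at Dex 4 h. The Dex 4 h line runs from 0.13 to -0.34 while the other groups stay between -0.09 and 0.06.

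CpdA raised no member. At 2 h, 4 of the 7 members fell, where 4.29% of all genes tested were called lower (6.18% in either direction), and at 4 h 4 of 7 fell, where 13.8% were called lower (20.5% in either direction). The median log2 fold change of the members was -0.41 at 2 h and -0.23 at 4 h, against -0.02 and -0.04 over all genes. Increases made up 30.5% of all calls at 2 h and 33.0% at 4 h, or 44.6% and 55.8% after median scaling. BIRC2 and TRAF2, the partners of the TNF receptor complex, were called at both times, and the same held after median scaling.

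BIRC2 fell to 31.0 and 29.8 RPKM at CpdA 2 h and 33.4 and 31.8 RPKM at CpdA 4 h, below vehicle in all 4 samples. The log2 fold changes were -0.33 ± 0.04 (adjusted p = 0.00183) and -0.23 ± 0.04 (adjusted p = 0.00416), the latter with an adjusted p of 0.0527 without CpdA 4 h replicate 2. TRAF2 fell to 13.3 and 13.04 RPKM at 2 h and 12.7 and 12.4 RPKM at 4 h, by -0.47 ± 0.05 (adjusted p = 0.00151) and -0.54 ± 0.05 (adjusted p = 0.000262), and all 4 samples were below every vehicle and Dex sample. XIAP, at 5.30 and 6.10 RPKM, fell at 2 h (-0.41 ± 0.10, adjusted p = 0.0466) and not detectably at 4 h (-0.17 ± 0.10, adjusted p = 0.266). Its gap between the CpdA 2 h replicates was larger than that of 91.1% of genes. BIRC5 was at 40.1 and 40.6 RPKM at 2 h (adjusted p = 0.685) and fell to 37.1 and 35.9 RPKM at 4 h (-0.18 ± 0.04, adjusted p = 0.0183). The calls of XIAP at 2 h and BIRC5 at 4 h were both lost under median scaling and when any 1 of the samples compared was left out. BIRC6 was not called at either time.

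With CpdA, the values of BIRC3 and TRAF1 depended on which vehicle sample served as reference. BIRC3 was at 5.75 and 5.70 RPKM at 2 h and 8.65 and 8.33 RPKM at 4 h, all below both vehicle samples, although vehicle replicate 2 was at 8.72 RPKM. Its log2 fold change was -1.08 ± 0.24 (adjusted p = 0.0308) at 2 h, -0.60 without vehicle replicate 1 and -1.56 without vehicle replicate 2, called each time, while without CpdA 2 h replicate 1 or 2 the adjusted p was 0.172 or 0.157. At 4 h it was -0.52 ± 0.24 (adjusted p = 0.164), -0.039 (adjusted p = 0.82) without vehicle replicate 1 and -1.0 (adjusted p = 0.000431) without vehicle replicate 2. TRAF1 was at 8.26 and 8.41 RPKM at 2 h and 7.99 and 8.03 RPKM at 4 h, again below both vehicle samples. Its log2 fold change was -0.51 ± 0.17 (adjusted p = 0.112) at 2 h and -0.57 ± 0.17 (adjusted p = 0.0399) at 4 h. Without vehicle replicate 1 these were -0.20 (adjusted p = 0.243) and -0.26 (adjusted p = 0.117), and without vehicle replicate 2 they were -0.83 (adjusted p = 0.00358) and -0.88 (adjusted p = 0.000937). The 4 h call of TRAF1 was also lost without either CpdA 4 h replicate and under median scaling (adjusted p = 0.0551) or quantile normalization (adjusted p = 0.0557).

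Set against each other without vehicle, the ligands differed at each time for BIRC3, BIRC2, TRAF1 and TRAF2. Of the 7 members, 5 were called at 2 h, where 13.7% of genes tested were, and 5 at 4 h, where 33.4% were. BIRC3 was 9.31-fold higher with Dex at 2 h (log2 difference 3.22 ± 0.24, adjusted p = 1.86e-05) and 4.64-fold higher at 4 h (2.21 ± 0.24, adjusted p = 0.000102). BIRC2 was higher with Dex at both times, by 0.51 ± 0.04 (adjusted p = 2.61e-05) and 0.52 ± 0.04 (adjusted p = 1.24e-05). TRAF2 was lower with both ligands than in vehicle at 4 h, and it was higher with Dex than with CpdA by 0.34 ± 0.05 (adjusted p = 0.00288) and 0.22 ± 0.05 (adjusted p = 0.0144). TRAF1 was lower with Dex by 0.82 ± 0.17 (adjusted p = 0.0101) at 2 h and 1.81 ± 0.17 (adjusted p = 3.76e-05) at 4 h on the log2 scale. XIAP was higher with Dex at 2 h (0.46 ± 0.10, adjusted p = 0.0155) and BIRC5 at 4 h (0.27 ± 0.04, adjusted p = 0.00133). Leaving out Dex 2 h replicate 1 or either CpdA 2 h replicate ended the 2 h call of TRAF1, leaving out either Dex 2 h replicate or CpdA 2 h replicate 1 ended that of XIAP, and leaving out either CpdA 4 h replicate ended the 4 h call of TRAF2. At 4 h XIAP differed by 0.13 with a 95% interval of -0.09 to 0.36, and by 0.29 (adjusted p = 0.0292) without Dex 4 h replicate 1.

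BIRC3 also differed between the ligands relative to each of the other 6 members. The ratio to BIRC2, its closest relative and neighbour, was 0.28, 0.36, -0.35 and -0.12 on the log2 scale in the Dex samples and -2.41, -2.36, -1.94 and -1.92 in the CpdA samples, with vehicle at -1.16 and -2.12. BIRC3 thus passed BIRC2 in level at Dex 2 h alone. Averaged over both times, the log2 ratio of BIRC3 to BIRC2 was higher with Dex by 2.20 (SD 0.33 among 4 Dex and 0.27 among 4 CpdA samples). The differences were 2.42 for the ratio to XIAP, 2.44 to TRAF2, 2.52 to BIRC5, 2.85 to BIRC6 and 4.03 to TRAF1. For each of the 6 ratios all 4 Dex samples lay above all 4 CpdA samples, and each exact permutation test over samples (two-sided) gave p = 0.0286, the smallest that 4 against 4 allows. Permuted within each time, the smallest p that can be had is 0.0556, and each ratio gave it. The 6 ratios share the BIRC3 values, which alone separated the ligands, so they are not 6 separate results. The differences were larger at 2 h than at 4 h for BIRC2 (2.71 and 1.70), XIAP, BIRC5, BIRC6 (3.2 and 2.49) and TRAF2, and were 4.04 and 4.03 for TRAF1.

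**Figure D4:**
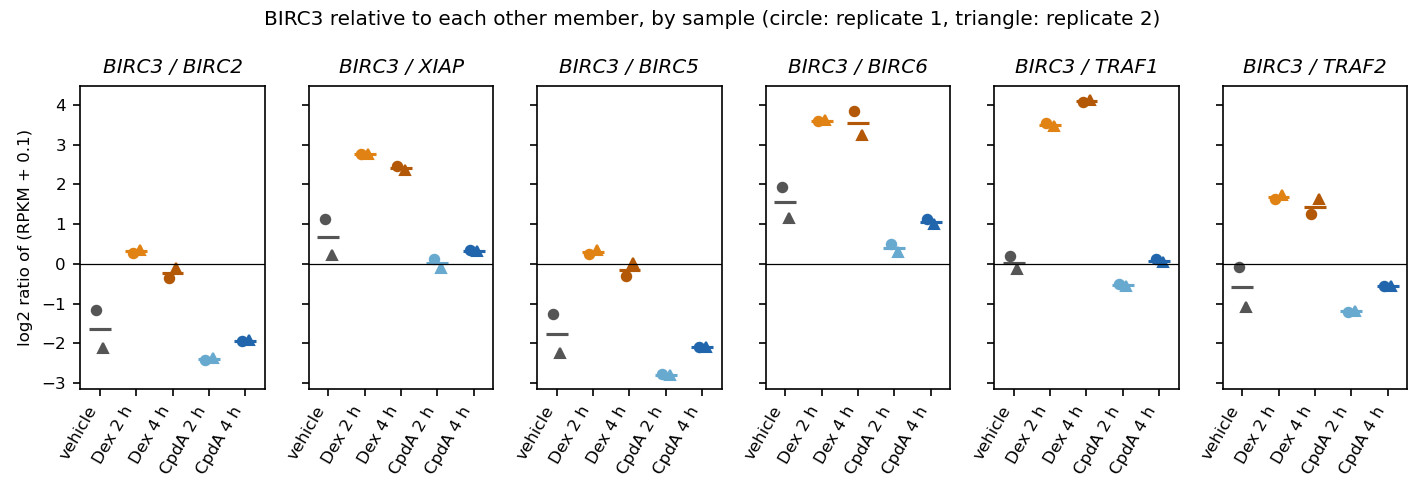
Log2 ratio of BIRC3 to each other member (vertical axis, computed on RPKM + 0.1) in the 5 groups (horizontal axis), with circles for replicate 1, triangles for replicate 2 and lines for means. In each panel the 4 Dex samples lie above the 4 CpdA samples. The ratio to TRAF1 shows the widest separation, 4.03, and the ratio to BIRC2 the narrowest, 2.20.

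Between 2 h and 4 h of Dex, TRAF1 was the member that moved furthest, while with CpdA it moved least (-0.06). With Dex it fell further by 1.05 on the log2 scale (SE 0.17, adjusted p = 0.00406), and TRAF2 fell by 0.19 (SE 0.05, adjusted p = 0.049), a call that ended without Dex 4 h replicate 2 or either Dex 2 h replicate. These were 2 of the 7 members, where 9.02% of genes tested were called lower (13.6% in either direction). BIRC3 was lower at Dex 4 h than at Dex 2 h in both replicates, by -0.45 ± 0.24 (adjusted p = 0.248), which did not pass the test. With CpdA no member was called between the times by limma (12.4% of genes were), while BIRC2, BIRC3, XIAP and BIRC5 had an unadjusted p under 0.05, at 0.0316, 0.0428, 0.0428 and 0.0096, and fits with other settings called up to 2. The change of TRAF1 over time differed between the ligands by -0.99 ± 0.23 (adjusted p = 0.0398), 1 of 7 members where 3.56% of genes were called lower (6.6% in either direction). Leaving out any 1 of the 8 samples except Dex 4 h replicate 2 ended that call. Increases were 33.5% of all calls over time with Dex and 42.0% with CpdA, or 53.3% and 54.6% after median scaling. The change of BIRC3 over time differed by -1.0 ± 0.34 (adjusted p = 0.125), as its mean fell with Dex and was higher at 4 h with CpdA (0.56 ± 0.24).

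The genes whose levels followed the members most closely differed from member to member. Likeness was Pearson's r of log2(RPKM + 0.1) over the 10 samples, a description over samples that share 5 treatments. BIRC3 was most like OSR2 (0.979), PKDCC (0.979), TNFAIP3 (0.972), ABTB2 (0.971) and PAG1 (0.969). TNFAIP3 encodes A20, a ubiquitin-editing inhibitor of NF-κB signalling, and ABTB2, the most abundant of these, went from a mean of 17.6 RPKM in vehicle to 44.7 at Dex 2 h. Among the members BIRC2 was the closest to BIRC3, with r = 0.928 and rank 87 of 12712 genes. BIRC5 (0.730) and XIAP (0.718) ranked 983 and 1040, TRAF2 (0.453) ranked 2463, BIRC6 (-0.15) ranked 6856 and TRAF1 (-0.69) ranked 11532. The neighbours in the genome were therefore the most alike pair of the 7, on scales of 1.57-fold for BIRC2 and 9.74-fold for BIRC3 between lowest and highest sample.

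TRAF1 was most like NEDD4L (0.994), a ubiquitin ligase, then VASN (0.990) and SMIM15 (0.987). TRAF2 was most like IFNGR2 (0.985), a chain of the interferon-gamma receptor, PTX3 (0.974) and LINC00938 (0.969). IFNGR2 stood at a mean of 69.3 RPKM in vehicle, 50.4 at Dex 4 h and 37.4 at CpdA 4 h, the same order as TRAF2. BIRC2 was most like SOS2 (0.988), PANX1 (0.984) and CRK (0.984), XIAP like SBNO1 (0.981), LPGAT1 (0.972) and MAP3K9 (0.963), and BIRC5 like LINC00883 (0.978), MRGBP (0.977) and RNF26 (0.976). BIRC6 was most like ALMS1 (0.995), BOD1L1 (0.990) and CNOT1 (0.990), whose longest coding transcripts are also long, at 12841, 10567 and 8411 bases.

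Among other NF-κB target genes, Dex lowered most, as it did TRAF1, and raised a few, as it did BIRC3. At Dex 2 h 13 of 18 fell and 3 rose, and at 4 h 12 fell and 3 rose, with medians of -0.96 and -1.17 on the log2 scale against -0.02 and -0.05 over all genes. IL6 (-3.63), IER3 (-3.00), CSF2 (-2.82) and CCL2 (-2.58) fell most at 2 h. The 3 that rose, named after their values were seen, were NFKBIA (1.60 at 2 h and 1.67 at 4 h), which encodes the inhibitor IκBα, TNFAIP3 (1.44 and 1.2) and PTGS2 (0.93 and 0.83), which encodes cyclooxygenase. Of all genes, 10.3% were called at Dex 2 h and 27.4% at Dex 4 h. Without vehicle replicate 1, 12 fell and 3 rose at each time, and without Dex 4 h replicate 1 the same counts held at 4 h. With CpdA, where 6.18% and 20.5% of all genes were called, 7 of 18 fell and 2 rose at 2 h, and 8 fell and 1 rose at 4 h. ICAM1, an adhesion molecule, fell with CpdA at 2 h and 4 h (-0.86 and -1.15), as did CSF2 (-1.42 and -2.44), whose 2 h value was -0.89 (adjusted p = 0.0622) without vehicle replicate 1. Without vehicle replicate 1 the counts for CpdA were 5 fallen and 5 risen at 2 h and 7 and 5 at 4 h, and without vehicle replicate 2 they were 9 and 1, and 13 and 0.

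At the TNF receptor complex, where the cIAPs work, 20 genes were tested. With Dex, 3 rose and 1 fell at 2 h, where 10.3% of all genes were called, and 5 rose and 5 fell at 4 h, where 27.4% were. The list medians were -0.02 and -0.0045, against -0.02 and -0.05 over all genes. RIPK2, a kinase of NOD signalling that the IAPs ubiquitinate, rose (1.09 and 1.21), as did TNFAIP3 and TNFRSF1A (0.44 and 0.83), the main TNF receptor, while RIPK1, the kinase that the cIAPs ubiquitinate in this complex, fell at 2 h (-0.24), a call lost without vehicle replicate 2 (-0.15, adjusted p = 0.103). TAB3, an adaptor that binds ubiquitin chains, fell at 4 h (-0.51). Leaving out either vehicle replicate gave 5 that rose and 3 that fell at Dex 4 h. With CpdA, 4 fell at 2 h and 7 at 4 h, where 4.29% and 13.8% of all genes were called lower, and none was called higher by limma. TNFAIP3 (-0.81 and -1.02) and TNIP1 (-0.35 and -0.47), partners in the same inhibitory complex, fell at both times. Without vehicle replicate 2, 2 fell at CpdA 2 h and 5 at 4 h. Without vehicle replicate 1 the CpdA values of TNFAIP3 were -0.48 and -0.69, both called. TNFAIP3 was thus higher than vehicle with Dex and lower with CpdA, as BIRC3 was at 2 h.

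**Figure D5:**
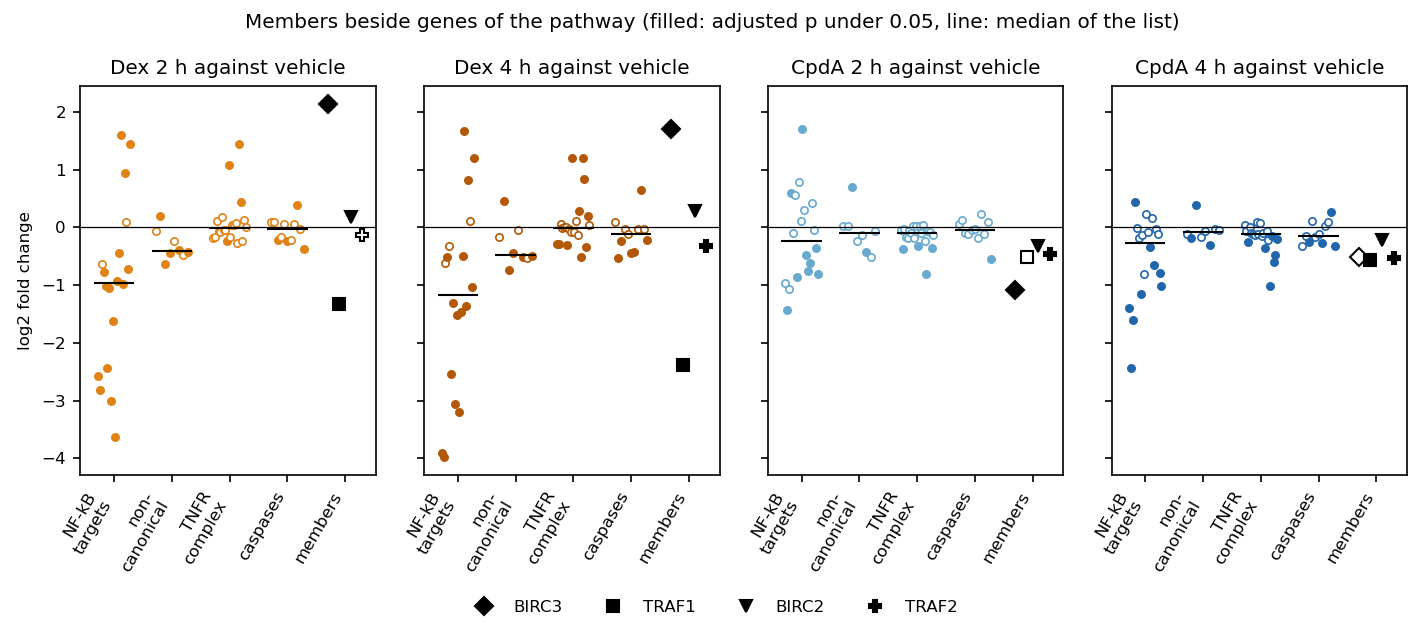
Log2 fold change against vehicle (vertical axis) of genes in 4 lists and of 4 members (horizontal axis), 1 panel per ligand and time. Each small point is 1 gene, filled where the adjusted p is under 0.05, horizontal lines are list medians and black symbols are BIRC3, TRAF1, BIRC2 and TRAF2. With Dex, BIRC3 lies above every gene shown and TRAF1 lies among the NF-κB targets that fell.

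In the noncanonical NF-κB arm, which the cIAPs with TRAF2 and TRAF3 hold in check, 4 of 8 genes fell and 1 rose with Dex at each time. Of all genes, 10.3% and 27.4% were called. The list medians were -0.41 and -0.47, against -0.02 and -0.05 over all genes. With CpdA, where 6.18% and 20.5% of all genes were called, 1 rose and 1 fell at 2 h, and 1 rose and 2 fell at 4 h. Without Dex 4 h replicate 1, 5 fell and 1 rose at Dex 4 h. MAP3K14, the kinase NIK itself, fell with Dex (-0.63 and -0.74) and rose with CpdA (0.69 and 0.38), although the 4 h rise was lost without vehicle replicate 2 (0.17, adjusted p = 0.0538). Its substrate NFKB2 fell with Dex (-0.44 and -0.44). RELB, the partner of NFKB2, fell with Dex (-0.51 at 4 h) and with CpdA (-0.43 and -0.30), where both calls were lost without vehicle replicate 2 (adjusted p = 0.0542 and 0.0786). LTBR, the lymphotoxin receptor, was the 1 that rose with Dex (0.20 and 0.46), the 2 h value having an adjusted p of 0.0623 without vehicle replicate 2. Of 8 other TRAF genes and adaptors, 3 fell with Dex at each time and limma called none higher. With CpdA 1 of the 8 rose and 1 fell at 2 h and limma called none at 4 h. The shares of all genes called are those given above. TRAF3 fell with Dex (-0.28 and -0.56) and at CpdA 2 h (-0.46), TRAF3IP2 fell with Dex (-0.43 and -0.55), and TRAF4 fell at Dex 2 h (-0.31) and rose at CpdA 2 h (0.40). Without vehicle replicate 1, 2 of the 8 fell with Dex at each time, as the Dex call of TRAF4 was lost at 2 h (adjusted p = 0.084). Without vehicle replicate 2, the Dex 2 h call of TRAF3 (adjusted p = 0.177) and the CpdA rise of TRAF4 (adjusted p = 0.0728) were lost.

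Among the IAP antagonists and the caspase and apoptosome genes, the changes named below were under 2-fold. The 4 IAP antagonists tested (DIABLO, HTRA2, XAF1 and septin 4) were not called with either ligand against vehicle, and 1 fell at Dex 4 h when vehicle replicate 2 was left out. Of 11 caspase and apoptosome genes, 1 rose and 3 fell at Dex 2 h, where 10.3% of all genes were called, and 1 rose and 5 fell at Dex 4 h, where 27.4% were. With CpdA, where 6.18% and 20.5% of all genes were called, 1 fell at 2 h, and 1 rose and 3 fell at 4 h. CFLAR, which encodes the caspase-8 inhibitor c-FLIP, was the 1 that rose (0.38 and 0.65), and CASP10 (-0.53 at 4 h), an initiator caspase, fell, a call lost without Dex 4 h replicate 1 (adjusted p = 0.0599) or vehicle replicate 1 (adjusted p = 0.0984). FADD, the adaptor of death receptors, fell with Dex (-0.37 at 2 h) and with CpdA (-0.56 and -0.31), the last with an adjusted p of 0.0508 without vehicle replicate 2. CYCS, the gene of cytochrome c, was the 1 that rose at CpdA 4 h (0.27), a call lost without vehicle replicate 1 (adjusted p = 0.0589). Without Dex 4 h replicate 1, 1 rose and 2 fell at Dex 4 h, and without vehicle replicate 2, 1 rose and 3 fell.

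Most of the mitotic genes listed with BIRC5 fell with CpdA at 4 h. Of 20 genes of the chromosomal passenger complex and mitosis, 15 fell and limma called none higher at CpdA 4 h. Of all genes, 13.8% were called lower there, and 4.29% at CpdA 2 h. In either direction, 10.3% of all genes were called at Dex 2 h and 27.4% at Dex 4 h. The list median at CpdA 4 h was -0.43, against -0.04 over all genes. BIRC5 itself fell by 0.18, a call lost under median scaling (adjusted p = 0.152). PLK1 (-0.68), AURKA (-0.67), CDCA8 (-0.67) and INCENP (-0.57) fell most, the last 2 being subunits of the same complex as BIRC5. AURKB, the kinase of that complex, named after its value was seen, was at -0.11 (adjusted p = 0.216). At CpdA 2 h 4 fell, and without vehicle replicate 2 none was called at 2 h and 13 at 4 h, while without vehicle replicate 1 there were 2 and 11. With Dex 1 rose at each time, CDC20 (0.32 and 0.86), and 2 fell at 4 h, or 3 without Dex 4 h replicate 1.

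Textbook GR targets served as a check on the ligands. With Dex, where 10.3% and 27.4% of all genes were called, 11 of 12 rose at 2 h and 12 of 12 at 4 h. PDK4 rose by 8.13 and 7.27 and TSC22D3 by 5.06 and 5.10 on the log2 scale, and the list medians were 3.07 and 3.39. With CpdA, where 6.18% and 20.5% of all genes were called, 7 of 12 rose at 2 h, and 6 rose and 1 fell at 4 h. DUSP1 rose by 2.76 and 1.85, while the list medians were 0.50 and 0.26. Among the 5 not called at CpdA 2 h, named after their values were seen, were FKBP5 (-0.10, limma adjusted p = 0.466), KLF9 (0.17, adjusted p = 0.394) and ANGPTL4 (-0.46, adjusted p = 0.177). Without vehicle replicate 2, 4 rose at CpdA 4 h and limma called none lower, and without vehicle replicate 1, 7 rose and 1 fell. The Dex counts were the same without any 1 of these libraries or Dex 4 h replicate 1. NR3C1, the gene of GR, was among the line's own markers and fell with Dex (-0.56 and -0.97).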

How the data were processed

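RNA was sequenced from 10 samples of MDA-MB-231 in 5 groups of 2, taken from the sample labels. The authors made TruSeq libraries, read 50 bases from 1 end, aligned to hg19 with TopHat2 2.0.13 and deposited RPKM from Partek 6.6 for 20668 gene symbols. How transcripts were combined into symbols is not given in the sources used here. The 7 members and the gene lists were chosen with earlier results of these data known.

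Values were analysed as log2(RPKM + 0.1), so fold changes of low genes are understated, for genes at 0.5 RPKM or above in 2 or more samples. One limma 3.58.1 model (R 4.3.3) over the 5 groups with an abundance trend gave every contrast, with Benjamini-Hochberg adjustment over 12713 genes. Calls were made at an adjusted p under 0.05. The fit was tested on simulated data. Ratios of BIRC3 to another member were compared by exact permutation over samples (scipy 1.17.1). The study's own test on reads could not be run on RPKM. Read totals are unknown, so no counting intervals are given.

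Named genes were the 7 members, at most 4 called genes with the largest change per list and vehicle comparison, and the 5 genes most like BIRC3 and 3 most like each other member. Alternatives were pseudocounts of 1 and 0.01, 2 other filters, quantile and median scaling, only the 4 samples of a comparison, a replicate block, no abundance trend and each replicate left out. List values without single libraries and permutation of ligands within each time were added after the data were seen. Replicates of a group shared at most 1 identical nonzero value. ChIP samples were not analysed here. A gene of the caspase list that the naming rule would name is not reported here.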

Additional observations from a re-analysis of the deposited data

Results flagged for a closer look

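Differences between the time points were flagged for 2 members. TRAF1 was lower at Dex 4 h than at Dex 2 h by a log2 fold change of -1.05 (limma adjusted p = 0.00406), with both 4 h samples below both 2 h samples, and the call held under each of the alternatives run. TRAF2 was lower by -0.19 (adjusted p = 0.049) in the same comparison, with no overlap of the replicates, and that call was lost after median scaling (adjusted p = 0.182). Without Dex 4 h replicate 1 it was -0.27 (adjusted p = 0.0101). The change of TRAF1 over time also differed between Dex and CpdA, by -0.99 (adjusted p = 0.0398), and was not called when any 1 of the Dex or CpdA samples was left out, except Dex 4 h replicate 2. The test used for an outlying sample needs larger groups than 2 and was not applied.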

How the results depend on the processing

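Of 504 member fold changes in the 8 comparisons of 2 groups, refitted with both replicates, 476 kept their side of the threshold, 21 lost a call and 7 gained one; of 224 refitted without 1 replicate, 188, 29 and 7 did. No called value changed sign. At CpdA 2 h, 4 members were called, and 2 without a filter, without an abundance trend or with only the 4 samples compared, where BIRC3 stayed at -1.08 (adjusted p 0.11, 0.0661 and 0.112); leaving out 1 replicate gave 2 to 4 members and -1.56 to -0.60 for BIRC3. At CpdA 4 h, 2 were called after median scaling and 1 to 4 without 1 replicate, with BIRC3 at -1.0 to -0.039 (without vehicle replicates 2 and 1). Dex 2 h against CpdA 2 h gave 3 to 4 members without 1 replicate. Dex 4 h against Dex 2 h gave 1 member without a filter, after quantile normalization or without a trend, and 1 to 2 without 1 replicate; with only its 4 samples BIRC3 was called at -0.45 (adjusted p 0.0417). CpdA 4 h against CpdA 2 h gave 1 member after quantile normalization and 2 with only its 4 samples, BIRC3 among them at 0.56 (adjusted p 0.000775). The difference between the ligands over time called 0 members with a pseudocount of 1, without a filter or without a trend, and 0 to 4 without 1 replicate. Over all genes, the calls without 1 replicate ran from 766 to 1505 at Dex 2 h (1311 with all samples), 216 to 1193 at CpdA 2 h (786), 1190 to 2168 at CpdA 4 h (2609), 959 to 1085 between ligands at 2 h (1743), 2759 to 5183 at 4 h (4241), 592 to 3440 over time with Dex (1725), 261 to 299 with CpdA (1577) and 293 to 2132 for the difference (839). With only 4 samples there were 1775 at Dex 4 h (3487), 480 at CpdA 2 h, and 696 and 3500 over time with Dex and CpdA. The cause was not tested.

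In the block fit with replicate number as a term, the same comparison of ligands over time called 0 members and CpdA 4 h against CpdA 2 h called 1 (BIRC5). The departure of replicate 1 from its group mean correlated across genes between groups by -0.06 to 0.20, over 0.1 in 3 of 10 pairs of groups. The numbers were therefore not taken to pair samples, although in vehicle the number goes with the time in the column headings. The block changed no other member call but that of TRAF1 at CpdA 4 h (adjusted p 0.0521).

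The BIRC3 ratios differed between ligands by 2.71, 2.76, 3.10 and 2.88 in the 2 h samples and by 1.70, 2.08, 1.95 and 2.00 in the 4 h samples, for BIRC2, XIAP, BIRC5 and TRAF2. Permuting ligands within each time, an alternative added after the data were seen, left the differences at 2.20, 2.42, 2.52, 2.85, 4.03 and 2.44 (for BIRC2, XIAP, BIRC5, BIRC6, TRAF1 and TRAF2) with p = 0.0556, the smallest exact p it allows. Without 1 replicate they ranged from 2.10 to 2.33 (BIRC2), 2.33 to 2.50 (XIAP), 2.40 to 2.65 (BIRC5), 2.70 to 2.98 (BIRC6), 3.92 to 4.15 (TRAF1) and 2.33 to 2.55 (TRAF2), where 4 against 3 samples allow no exact p under 0.0571. With 2 replicates per group and read totals unknown, small changes of BIRC6 and XIAP could not be resolved.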
